A study of Mus musculus with 35 samples.

Results

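The endoplasmic reticulum (ER) chaperones and integrated stress response genes examined here are a fixed list of 10 mouse genes, taken by symbol from a count table of 22865 genes. Of the 10 listed genes, 9 had a row in the table, and all 9 were among the 6174 genes tested. Ddit3, which encodes the stress-induced transcription factor CHOP, had no row and was not analysed here. The 9 genes were the chaperones Hspa5, Hsp90b1 and Calr, the disulfide isomerases Pdia3 and Pdia6, the degradation adaptor Herpud1, the transcription factors Xbp1 and Atf4, and Ppp1r15a, the stress-induced subunit of the phosphatase that acts on eIF2alpha.

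CD8 T cells of C57BL/6 mice aged 13 months were sorted into lysis buffer and their polyadenylated RNA was sequenced from the 3' end. Mice had received 1 of the diets labelled ND and CD-HFD. Spleen cells were the fraction labelled CX3CR1neg, and hepatic cells were the fractions labelled CXCR6neg and CXCR6pos. Libraries analysed numbered 5 for spleen ND, 6 for spleen CD-HFD, 4 for liver CXCR6neg ND, 6 for liver CXCR6neg CD-HFD, 6 for liver CXCR6pos ND and 5 for liver CXCR6pos CD-HFD. All 6 groups shared strain and age, and no genetic change is labelled. The labels do not say whether replicates were separate animals, and the p-values below therefore describe only how these samples spread, which may be technical.

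Proteins that enter the ER are folded with the help of chaperones and disulfide isomerases, and an excess of unfolded protein is sensed by IRE1, PERK and ATF6. IRE1 splices Xbp1 mRNA and ATF6 is released as a transcription factor, and together they raise chaperone and degradation genes. PERK and related kinases phosphorylate eIF2alpha, which lowers general translation while favouring Atf4 translation, and Ppp1r15a then recruits the phosphatase that reverses this. In T cells the same machinery serves secretory and metabolic demand after activation.

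The ER stress response element, through which ATF6 and XBP1 act, was looked for in RefSeq promoters of build GRCm38.p6, each 300 bases long. This was done after the chaperones were seen not to move together, and the part of the element in their levels was not tested. The element was CCAAT and CCACG with 9 bases of any kind between, on either strand. It was found in the promoters of 4 of the 10 listed genes and in 39 of all 32851 promoters (0.119%). It was chosen for its known link to genes of this kind, so these counts are a description and no test of enrichment. The matches follow, 5′ to 3′ on the gene's strand, with the matched letters in capitals and 5 flanking bases in lower case on each side.
Hspa5 (chr2:34772020-34772048, plus strand): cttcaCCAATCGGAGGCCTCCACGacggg
Hsp90b1, distal (chr10:86705633-86705661, minus strand): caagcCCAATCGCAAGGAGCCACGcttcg
Hsp90b1, proximal (chr10:86705528-86705556, minus strand; element on the opposite strand): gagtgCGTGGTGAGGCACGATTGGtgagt
Calr (chr8:84847070-84847098, minus strand; element on the opposite strand): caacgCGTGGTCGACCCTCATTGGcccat
Pdia6 (chr12:17266486-17266514, plus strand): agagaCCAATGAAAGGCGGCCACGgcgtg
The Hspa5 match lay 65 to 47 bases before the RefSeq start, within the gene span of GENCODE M21, whose start is further upstream. The Pdia6 match lay 98 to 80 bases before its start.

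Herpud1 and Ppp1r15a held matches to other elements that were looked for. The related element, ATTGG and CCACG with 1 base of any kind between, was found in the Herpud1 promoter and in 12 of 32851 promoters (0.0365%). The CHOP and ATF4 element, TGATG and AA with 1 base between, was also found in Herpud1, against 1304 promoters (3.97%). The cAMP response element TGACGTCA was found in Ppp1r15a, against 588 promoters (1.79%), with both strands searched for each.
Herpud1, related element (chr8:94386372-94386392, plus strand): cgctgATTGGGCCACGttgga
Herpud1, CHOP and ATF4 element on the opposite strand (chr8:94386312-94386329, plus strand): gcgggTTGCATCAgcccg
Ppp1r15a, TGACGTCA (chr7:45526269-45526285, minus strand): tccggTGACGTCAgcac
These letters were not found in the windows of Xbp1, Atf4, Ddit3 and Pdia3. A match describes the sequence and not a bound site. These elements too were picked with genes of this kind in mind, so their counts are no test of enrichment.

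Total counts ranged from 15633 to 978896 per library (median 308123). Liver CXCR6pos ND replicate 1 held 15633 counts and liver CXCR6pos CD-HFD replicate 5 held 57168, the shallowest of the series. Columns labelled liver ND CXCR6neg 1 and spleen ND CX3CR1neg 6 held identical values and were left out. In Cxcr6 CPM (a gene's counts scaled to a common total per library), ND CXCR6pos replicate 6 was the lowest of its group at 191 and ND CXCR6neg replicate 4 the highest of its group at 434, against their labels. All 8 CD8 T cell markers were detected in every group, with summed levels of 7098 to 11790 CPM.

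The genes Ppp1r15a, Atf4 and Hspa5 were higher in both hepatic fractions than in spleen under both diets. For these genes no liver library overlapped a spleen library. The share of all genes tested that lack such overlap was not computed, here or in any comparison below. No separation of libraries can therefore be called particular to these genes. Ppp1r15a differed 8.68- to 19.3-fold, Atf4 2.48- to 3.11-fold and Hspa5 2.3- to 2.65-fold. Pdia6, Pdia3 and Hsp90b1 were higher than in spleen in CXCR6pos cells under CD-HFD, by 1.61-, 1.27- and 1.39-fold. Calr and Herpud1 passed the test in no comparison. The edgeR quasi-likelihood test was fitted over all 32 libraries and 6174 genes with Benjamini-Hochberg adjustment at 0.05, and every fold change and adjusted p of a gene below comes from it. In bulk samples, fewer cells of a type and less RNA per cell cannot be told apart.

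**Figure D1:**
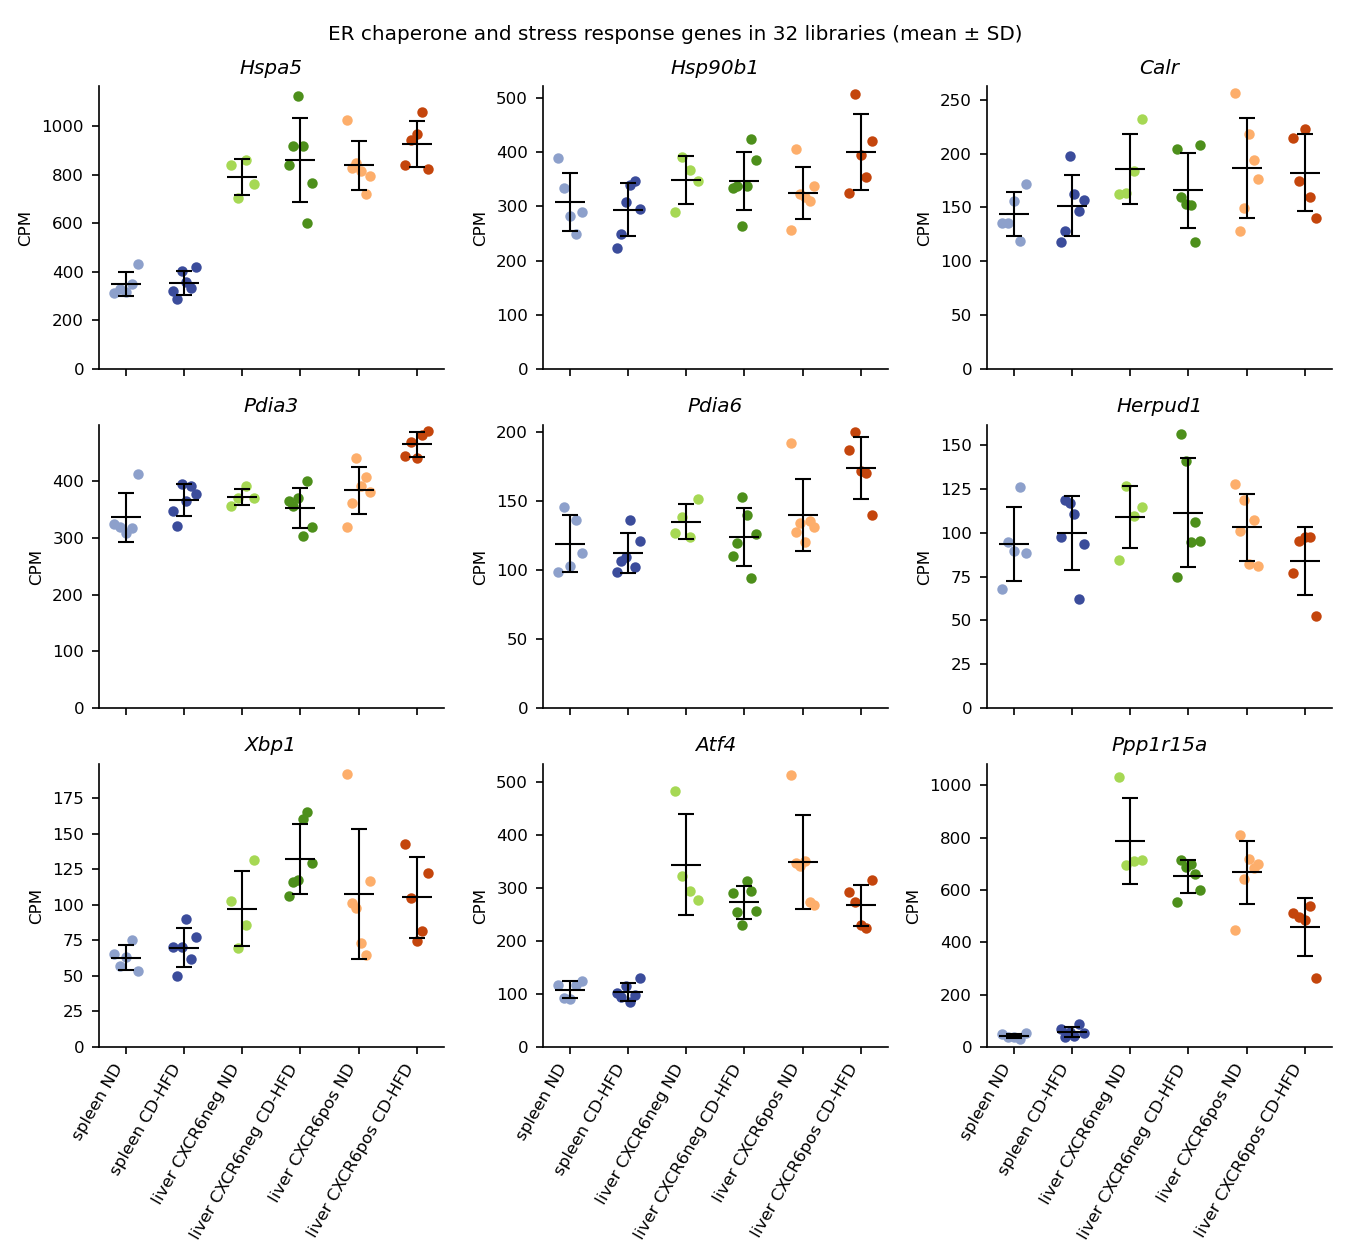
Level of each of the 9 genes, in CPM (y axis, starting at 0), in 32 libraries by group (x axis). Points are libraries, the long bar is the group mean and the error bars are the SD. Hspa5, Atf4 and Ppp1r15a separate every liver library from every spleen library.

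Ppp1r15a was the gene with the largest difference among the 9. In spleen ND it stood at 49.1, 37.6, 39.8, 32 and 53.2 CPM (42.3 ± 8.68, SD, n = 5). Spleen CD-HFD libraries ran from 38.8 to 88.9 CPM with a median of 55.4 (58 ± 18.8, SD, n = 6). The spleen diet groups overlapped, and their difference did not pass the test (log2 fold change 0.46 ± 0.21 SE, adjusted p = 1).

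Hepatic Ppp1r15a levels were higher in every library. The 4 CXCR6neg ND libraries stood at 1031, 694, 709 and 714 CPM (787 ± 163, SD). CXCR6neg CD-HFD libraries ran from 554 to 713 CPM with a median of 674 (652 ± 62.3, SD, n = 6). CXCR6pos ND libraries ran from 448 to 810.0 CPM with a median of 692 (667 ± 121, SD, n = 6), the lowest resting on 7 counts. CXCR6pos CD-HFD libraries stood at 511, 495, 487, 539 and 262 CPM (459 ± 112, SD, n = 5), the last resting on 15 counts. All 21 liver libraries were above all 11 spleen libraries.

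Against spleen, the log2 fold change of Ppp1r15a was 4.27 ± 0.18 (SE) for CXCR6neg ND (adjusted p = 1.13e-36) and 3.53 ± 0.15 for CXCR6neg CD-HFD (adjusted p = 1.69e-36). It was 4.09 ± 0.17 for CXCR6pos ND (adjusted p = 1.02e-36) and 3.12 ± 0.16 for CXCR6pos CD-HFD (adjusted p = 4.84e-31). Both fractions of a diet were set against the same spleen libraries, so these values are not independent. The identical column held in spleen ND and in liver CXCR6neg ND, when kept in the liver group, gave 3.92 for CXCR6neg ND (adjusted p = 6.264e-06).

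Atf4, the transcription factor whose translation rises when eIF2alpha is phosphorylated, followed the same division by tissue. Spleen ND libraries stood at 117, 91.5, 89.6, 118 and 124 CPM (108 ± 16.2, SD, n = 5). Spleen CD-HFD libraries ran from 84.3 to 129 CPM with a median of 99.5 (104 ± 16.2, SD, n = 6). These groups overlapped.

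In CXCR6neg ND, Atf4 stood at 482, 322, 294 and 276 CPM (344 ± 94.5, SD, n = 4). CXCR6neg CD-HFD libraries ran from 229 to 312 CPM with a median of 273 (273 ± 31.2, SD, n = 6), and CXCR6pos ND libraries from 267 to 512 with a median of 344 (348 ± 88.4, SD, n = 6). CXCR6pos CD-HFD libraries stood at 291, 273, 229, 225 and 315 CPM (267 ± 39.1, SD, n = 5). Every liver library was at 225 CPM or above and every spleen library at 129 or below. Atf4 log2 fold changes against spleen were 1.63 ± 0.15 (SE, CXCR6neg ND, adjusted p = 2.55e-16), 1.37 ± 0.14 (CXCR6neg CD-HFD, 3.92e-15), 1.54 ± 0.14 (CXCR6pos ND, 8.34e-17) and 1.31 ± 0.15 (CXCR6pos CD-HFD, 7.82e-13).

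Hspa5 encodes BiP, the Hsp70-family chaperone of the ER lumen that also holds the stress sensors inactive. Spleen ND libraries stood at 314, 330.1, 319, 350.0 and 432 CPM (349 ± 48.4, SD, n = 5), and spleen CD-HFD libraries ran from 290.1 to 421 with a median of 345 (354 ± 50.1, SD, n = 6). Hspa5 stood at 838, 702, 859 and 761 CPM in CXCR6neg ND (790.0 ± 72.4, SD, n = 4), and CXCR6neg CD-HFD ran from 601 to 1123 with a median of 878 (860.3 ± 174, SD, n = 6). CXCR6pos ND ran from 722 to 1023 CPM with a median of 819.6 (838 ± 101, SD, n = 6), and CXCR6pos CD-HFD stood at 841, 943, 968, 1057 and 822 (926 ± 96.4, SD, n = 5). The highest spleen library, at 432 CPM, was below the lowest liver library, at 601.

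Log2 fold changes of Hspa5 against spleen were 1.2 ± 0.12 (SE) for CXCR6neg ND (adjusted p = 2.68e-14) and 1.29 ± 0.11 for CXCR6neg CD-HFD (adjusted p = 1.3e-19). They were 1.21 ± 0.11 for CXCR6pos ND (adjusted p = 4.81e-16) and 1.41 ± 0.11 for CXCR6pos CD-HFD (adjusted p = 5.31e-21). Hsp90b1, the Hsp90-family chaperone GRP94, moved little by comparison. The number of Hspa5 counts per Hsp90b1 count, a ratio chosen after its values were seen, was 1.16 ± 0.283 in spleen ND and 1.22 ± 0.197 in spleen CD-HFD. It was 2.3 ± 0.457 in CXCR6neg ND, 2.6 ± 0.95 in CXCR6neg CD-HFD, 2.65 ± 0.692 in CXCR6pos ND and 2.37 ± 0.463 in CXCR6pos CD-HFD (all SD). The lowest liver library, at 1.42, lay within the spleen range of 0.807 to 1.49.

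**Figure D2:**
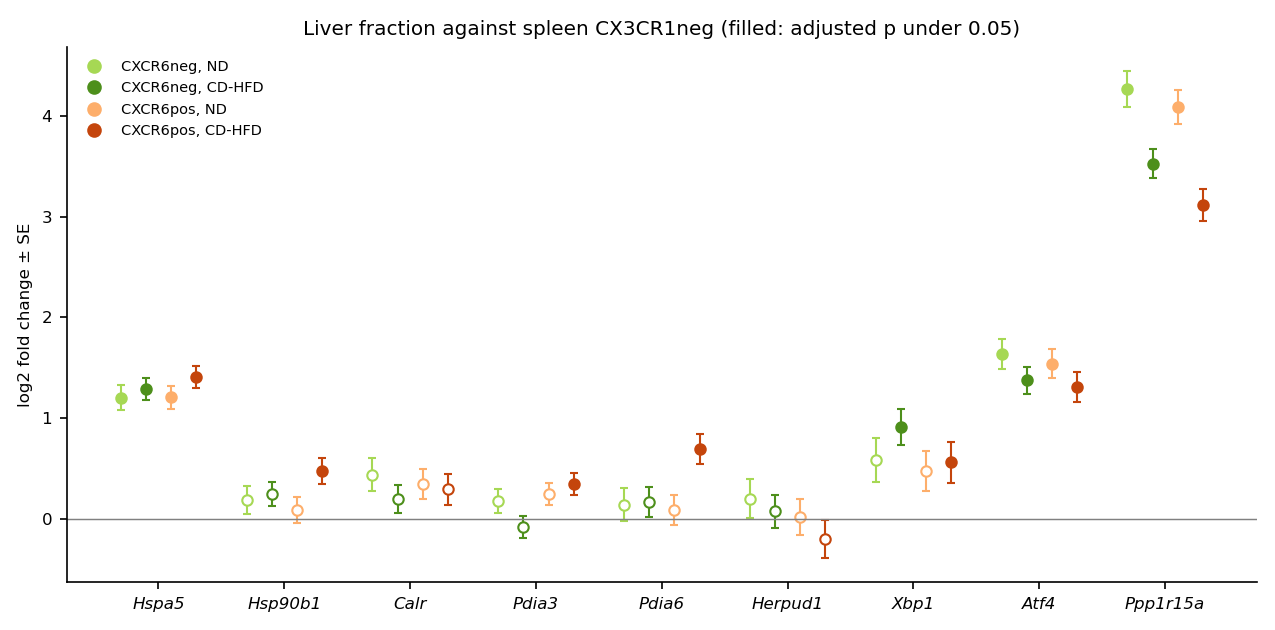
Log2 fold change of each gene in a liver fraction against spleen CX3CR1neg of the same diet (y axis), with error bars of 1 SE. Filled points passed the adjusted threshold of 0.05. Ppp1r15a, Atf4 and Hspa5 are filled in all 4 comparisons, and Calr and Herpud1 in none.

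Xbp1, the transcription factor activated by IRE1 splicing, passed against spleen in both CD-HFD comparisons. It stood between 53.2 and 75.5 CPM in spleen ND (62.9 ± 8.55, SD, n = 5) and between 50.1 and 90.1 in spleen CD-HFD (70 ± 13.5, SD, n = 6). CXCR6neg CD-HFD libraries ran from 106 to 165 CPM with a median of 123 (132 ± 24.6, SD, n = 6), above every spleen library (log2 fold change 0.91 ± 0.18 SE, adjusted p = 4.59e-05). CXCR6pos CD-HFD libraries stood at 143, 105, 74.4, 81.3 and 122 CPM (105 ± 28.4, SD, n = 5) and overlapped with spleen (0.56 ± 0.2, adjusted p = 0.0281). That second call was lost without CXCR6pos CD-HFD replicate 1 (adjusted p = 0.155), CXCR6pos CD-HFD replicate 2 (0.07031) or spleen CD-HFD replicate 2 (0.113). Under ND, Xbp1 was at 97.3 ± 26.4 CPM (SD, n = 4) in CXCR6neg and 107 ± 45.6 (SD, n = 6) in CXCR6pos, with adjusted p of 0.0918 and 0.0978 against spleen. Counts per gene do not separate spliced from unspliced Xbp1 mRNA.

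Hsp90b1, Pdia3 and Pdia6 passed against spleen in 1 comparison each, that of CXCR6pos under CD-HFD. Pdia6, a disulfide isomerase that binds BiP and IRE1, stood at 187, 200.0, 172, 171 and 139.9 CPM in CXCR6pos CD-HFD (174 ± 22.4, SD, n = 5). Spleen CD-HFD libraries ran from 98.6 to 137 CPM with a median of 108 (112 ± 14.2, SD, n = 6), so the groups did not overlap (log2 fold change 0.69 ± 0.15 SE, adjusted p = 9.52e-05). Pdia3, the isomerase that works with calreticulin on glycoproteins and in MHC class I loading, stood at 445, 469.7, 441, 482 and 489.8 CPM in CXCR6pos CD-HFD (466 ± 21.9, SD, n = 5). It ran from 321 to 396 CPM with a median of 372 in spleen CD-HFD (367 ± 28.4, SD, n = 6), again without overlap (0.34 ± 0.11, adjusted p = 0.0118). The share of all genes without overlap in this comparison was not computed.

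Hsp90b1 was at 400.4 ± 70.4 CPM (SD, n = 5) in CXCR6pos CD-HFD and 294 ± 49.2 (SD, n = 6) in spleen CD-HFD, with overlapping libraries (log2 fold change 0.47 ± 0.13 SE, adjusted p = 0.00224). Without CXCR6pos CD-HFD replicate 2, whose Hsp90b1 level was the highest at 508 CPM, its adjusted p was 0.05904. Calr, the lectin chaperone of glycoproteins, had group means of 144 to 187 CPM, and a test of any difference among the 6 groups gave adjusted p = 0.0981. Herpud1, which organises the ER ubiquitin ligase that disposes of misfolded proteins, had group means of 83.9 to 111 CPM (adjusted p = 0.8). Calr and Herpud1 libraries of liver and spleen overlapped throughout.

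Counted by comparison, 4 of the 9 genes were called for CXCR6neg against spleen under CD-HFD, against 10.4% of all genes tested, and 3 under ND, against 6.87%. For CXCR6pos against spleen, 7 of 9 were called under CD-HFD, against 25.7% of all genes, and 3 under ND, against 14.4%. Each of these calls was higher in liver. Over the 6 groups together, 7 of 9 genes were called, against 28.9% of all genes. All genes tested had a median log2 fold change of -0.016 to 0 in each comparison.

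Genes of early activation and of cell dissociation moved with tissue beside Ppp1r15a, Atf4 and Hspa5. Of 20 tested genes of a 23-gene list of immediate-early and dissociation-linked genes, 19 were higher and 0 lower in liver in each of the 4 comparisons with spleen, with median log2 fold changes of 1.88 to 2.14. Their summed level was 2639 to 3428 CPM in spleen libraries and 12629 to 19138 in liver libraries. Fos, an AP-1 subunit, was at 14.9 ± 7.61 CPM (SD, n = 5) in spleen ND and 579 ± 158 (SD, n = 6) in CXCR6pos ND. Spleen cells were the CX3CR1neg fraction and liver cells the CXCR6 fractions. Tissue handling, the sorted fraction and the response of the cells in the organ therefore cannot be told apart in this design.

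**Figure D3:**
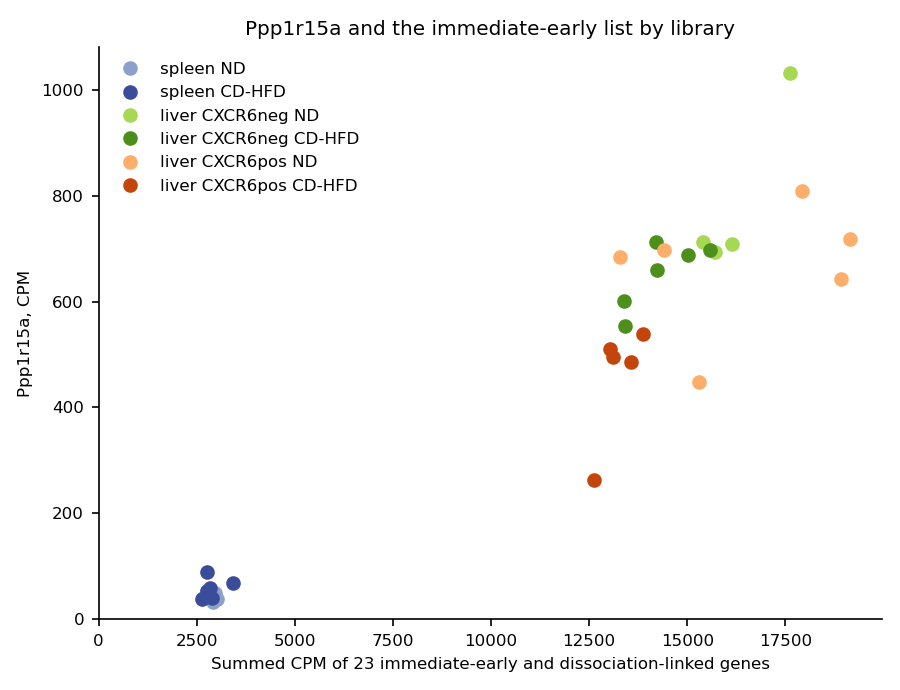
Ppp1r15a level (y axis, CPM) against the summed level of 23 immediate-early and dissociation-linked genes (x axis, CPM), 1 point per library coloured by group. Spleen libraries lie at the lower left, and the lowest liver library in both measures is CXCR6pos CD-HFD replicate 5, at 262 CPM of Ppp1r15a.

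Among 5952 genes with a mean of at least 20 CPM, the 3 whose level over 32 libraries was most like that of Ppp1r15a were Junb (Spearman rho 0.935), Fos (0.925) and Tagap (0.912). For Hspa5 they were Dusp1 (0.894), Gem (0.882) and Nr4a2 (0.875), and for Xbp1 Mxd1 (0.721), Dusp5 (0.698) and Phlda1 (0.692). These libraries share the division into liver and spleen, and the correlations of these pairs within groups were not computed. With group means removed, the pairs of the 9 genes had Spearman rho between -0.376 (Atf4 and Herpud1) and 0.455 (Pdia6 and Herpud1), over the same 32 libraries.

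Markers of other cell types also differed between tissues. The 9 markers of plasma cells, a cell type rich in ER chaperones, summed to 165 to 1653 CPM in spleen and 80.9 to 601 in liver. Igha was at 0 in all 4 liver groups and Tnfrsf17 in these and in spleen ND. Of 3 tested, 1 was higher and 2 lower in CXCR6neg than in spleen under CD-HFD, and 1 higher and 1 lower in CXCR6pos. Under ND, 0 were higher and 2 lower in each fraction. Plasmacytoid dendritic cell markers were higher in CXCR6neg cells than in spleen for 9 of 11 tested genes under CD-HFD, the comparison with the larger Xbp1 difference, and 7 of 11 under ND. All 12 summed to 292 to 500.0 CPM in spleen CD-HFD and 937 to 1568 in CXCR6neg CD-HFD, with none at 0. The 7 NK cell markers summed to 269 to 394 CPM in spleen and 632 to 2571 in liver. Of these, Ncr1 was at 0 in all 4 liver groups and in spleen ND. The 10 B cell markers summed to 1547 to 2695 in spleen and 174 to 1379.9 in liver. Cd79a was at 0 in both CXCR6neg groups, Pax5 in both CXCR6pos groups, Ebf1 in CXCR6neg ND and Ms4a1 in CXCR6neg CD-HFD. Under CD-HFD, 2 of 6 tested NK cell markers were higher and 2 lower in CXCR6pos than in spleen, and 3 higher and 0 lower in CXCR6neg. Of 4 tested B cell markers, 1 was higher and 2 lower in CXCR6neg, and 0 higher and 3 lower in CXCR6pos. The 6 erythroid markers summed to 783 to 4766 CPM in spleen and 1605 to 9835 in liver. Of 5 tested, 3 were higher in each fraction under ND, and 0 in CXCR6neg and 2 in CXCR6pos under CD-HFD. The part of any of these cell types in the tissue differences was not tested.

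Within the liver, 3 of the 9 genes separated the CXCR6 fractions under CD-HFD, against 11.1% of all genes tested. Pdia3 and Pdia6 were higher in CXCR6pos cells and Ppp1r15a was lower. Pdia3 ran from 304 to 401 CPM with a median of 361 in CXCR6neg CD-HFD (353 ± 35.3, SD, n = 6), below all 5 CXCR6pos libraries (log2 fold change 0.43 ± 0.12 SE, adjusted p = 0.00678). Pdia6 ran from 94.3 to 153 CPM with a median of 123 in CXCR6neg CD-HFD (124 ± 20.9, SD, n = 6) and overlapped with CXCR6pos (0.52 ± 0.16, adjusted p = 0.0208).

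All 5 CXCR6pos CD-HFD libraries were below the 6 CXCR6neg CD-HFD libraries in Ppp1r15a, at 539 CPM and lower against 554 and higher. How many of all genes separate these libraries in this way was not computed. The log2 fold change was -0.41 ± 0.13 (SE, adjusted p = 0.0239). That call was lost without CXCR6pos CD-HFD replicate 5 (-0.34, adjusted p = 0.07389) and without CXCR6neg CD-HFD replicate 2 (0.05504), 3 (0.05155) or 4 (0.05659). The Pdia6 call was lost without CXCR6pos CD-HFD replicate 2 (0.09252) or CXCR6neg CD-HFD replicate 1 (0.05138). Of 11 tested plasmacytoid dendritic cell markers, 11 were lower in CXCR6pos CD-HFD. All 12 summed to 937 to 1568 CPM in CXCR6neg CD-HFD and 140 to 229 in CXCR6pos CD-HFD, where Ccr9, Smim5 and Spib were at 0. Of 20 tested immediate-early and dissociation-linked genes, 1 was higher and 5 lower in the same comparison, where 11.1% of all genes were called. The part of these genes or of plasmacytoid dendritic cells in the 3 differences was not tested.

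Under ND, none of the 9 genes passed between the CXCR6 fractions by edgeR's quasi-likelihood test or by DESeq2, against 0.0324% of all genes. By edgeR, 501 of 6174 genes had an unadjusted p under 0.05. Ppp1r15a was at -0.18 ± 0.13 (log2 fold change ± SE, adjusted p = 0.818), Pdia3 at 0.07 ± 0.12 (0.974) and Pdia6 at -0.06 ± 0.17 (0.989). In Cxcr6, 2 of the ND liver libraries go against their label. Of these, CXCR6pos ND replicate 6 also held a plasmacytoid dendritic cell marker sum of 1139 CPM, against 144 to 212 in the other CXCR6pos ND libraries and 613 to 1225 in CXCR6neg ND. Without both libraries, Ppp1r15a was at -0.24 (adjusted p = 0.6027). The difference between diets in the fraction effect was tested directly and passed for 0 of the 9 genes, against 1.44% of all genes. Its adjusted p was 0.26 for Pdia6, 0.381 for Pdia3 and 0.72 for Ppp1r15a.

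Diet was associated with 2 of the 9 genes in CXCR6pos cells, against 11.3% of all genes tested. Ppp1r15a was lower under CD-HFD (log2 fold change -0.51 ± 0.13 SE, adjusted p = 0.0028). ND and CD-HFD libraries overlapped only through ND replicate 1, at 448 CPM from 7 counts. The other 5 ND libraries were at 643 CPM or above and all CD-HFD libraries at 539 or below. Without the 2 shallow libraries the value was -0.47 (adjusted p = 0.003646), and without the 2 ND libraries that go against their label it was -0.51 (0.00524). With the identical column kept in liver CXCR6neg ND, the call was lost at a value of -0.51 (adjusted p = 0.4929). That column held 34.1 CPM of Ppp1r15a, beside 32 to 53.2 in spleen ND and 694 to 1031 in the other CXCR6neg ND libraries.

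Pdia6 was higher under CD-HFD in CXCR6pos cells (log2 fold change 0.46 ± 0.16 SE, adjusted p = 0.0393). CXCR6pos ND libraries ran from 120.2 to 192 CPM with a median of 133 (140.1 ± 26, SD, n = 6), the highest resting on 3 counts, and they overlapped with CD-HFD. This call was lost under DESeq2 (adjusted p = 0.05317). It was also lost on leaving out any of ND replicates 4, 5 and 6 or CD-HFD replicates 1 to 4, with adjusted p between 0.0537 and 0.1416. Hspa5 was at 0.24 ± 0.11 (adjusted p = 0.193), Hsp90b1 at 0.28 ± 0.13 (0.2), Pdia3 at 0.24 ± 0.11 (0.204) and Atf4 at -0.28 ± 0.14 (0.229).

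**Figure D4:**
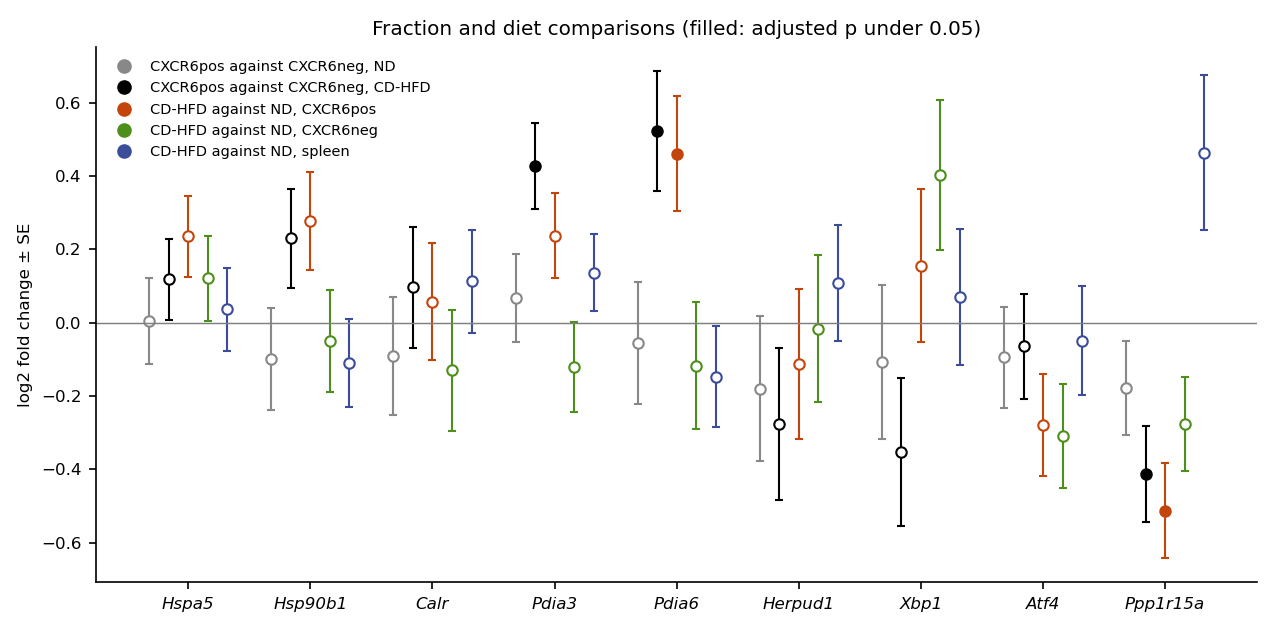
Log2 fold change of each gene between CXCR6 fractions of the liver and between diets within a fraction or spleen (y axis), with error bars of 1 SE. Filled points passed the adjusted threshold of 0.05 and are limited to Pdia3, Pdia6 and Ppp1r15a.

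Immediate-early and dissociation-linked genes moved with diet in CXCR6pos cells too. Of 20 tested, 10 were lower and 2 higher under CD-HFD, with a median log2 fold change of -0.49. Their sum ran from 13279 to 19138 CPM in CXCR6pos ND and from 12629 to 13868 in CXCR6pos CD-HFD. Fos was at 173 ± 30.1 CPM (SD, n = 5) in CXCR6pos CD-HFD. Their part in the Ppp1r15a difference was not tested.

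Neither diet comparison outside CXCR6pos cells called any of the 9 genes by edgeR or by DESeq2. In CXCR6neg cells the background was 0.47% of all genes, with 524 genes at an unadjusted p under 0.05, and in spleen it was 0.0324%, with 274 such genes. Ppp1r15a was at -0.28 ± 0.13 (log2 fold change ± SE, adjusted p = 0.53) in CXCR6neg cells and Xbp1 at 0.4 ± 0.2 (0.593). Without CXCR6neg ND replicate 2, the library at 1031 CPM, the Ppp1r15a value was -0.11.

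The diet effect in CXCR6pos cells was also tested against that in spleen, and 1 of the 9 genes passed, against 3.98% of all genes. Ppp1r15a differed by -0.98 ± 0.25 (log2, SE, adjusted p = 0.00793), from a value of 0.46 in spleen to -0.51 in CXCR6pos cells. Leaving out spleen ND replicate 4, the lowest spleen library at 32 CPM, gave -0.85 (adjusted p = 0.05199). Pdia6 was at 0.61 ± 0.21 (adjusted p = 0.0825). Of 20 tested immediate-early and dissociation-linked genes, 0 were higher and 6 lower in the same test. Their part in the Ppp1r15a value was not tested.

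Of the wider pathway, 4 lists of ER and stress response genes, none of the 10 included, had 86 tested genes. Called genes numbered 10 (7 higher, 3 lower) for CXCR6neg against spleen under CD-HFD and 8 (6 higher, 2 lower) under ND. For CXCR6pos against spleen they numbered 18 (12 higher, 6 lower) under CD-HFD and 15 (11 higher, 4 lower) under ND. As shares of the 86 these were 11.6%, 9.3%, 20.9% and 17.4%, beside 10.4%, 6.87%, 25.7% and 14.4% of all genes.

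Of 38 genes of ER folding and import, Dnajb9, the BiP co-chaperone ERdj4 that restrains IRE1, was higher in liver in each of the 4 comparisons. It was at 24.8 ± 2.02 CPM (SD, n = 5) in spleen ND and 90.4 ± 20.7 (n = 4) in CXCR6neg ND (log2 fold change 1.76 ± 0.26 SE, adjusted p = 1.02128e-07). In spleen CD-HFD it was at 21.3 ± 6.89 CPM (n = 6) and in CXCR6neg CD-HFD at 127 ± 23.9 (n = 6), a difference of 2.47 ± 0.21 (adjusted p = 2.85549e-18). Txndc5, a disulfide isomerase abundant in plasma cells, fell instead, from 142 ± 21 CPM (n = 6) in spleen CD-HFD to 44.5 ± 25 (n = 5) in CXCR6pos CD-HFD (-1.89 ± 0.22, adjusted p = 6.70901e-12). The list's median log2 fold change was 0.09 for CXCR6pos against spleen under CD-HFD, beside -0.01 for all genes.

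Of 15 genes of ER-associated degradation, Selenok, a selenoprotein of the ER membrane, was higher in liver in all 4 comparisons. It was at 212 ± 21.7 CPM (SD, n = 6) in spleen CD-HFD, 417 ± 52.5 (n = 6) in CXCR6neg and 478 ± 42.7 (n = 5) in CXCR6pos. Of 15 sensors and transcription factors, Cebpb was called higher in liver in all 4 comparisons. Under CD-HFD it went from 3.56 ± 3.45 CPM (n = 6) in spleen to 34.5 ± 7.38 (n = 6) in CXCR6neg (2.82 ± 0.41, adjusted p = 3.85972e-08). Impact, which restrains the eIF2alpha kinase GCN2, was at 23.1 ± 12.3 CPM (n = 5) in spleen ND and 57.6 ± 18.3 (n = 6) in CXCR6pos ND (1.5 ± 0.3, adjusted p = 5.53993e-05).

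Of 18 targets of the integrated stress response, 2 to 4 were called in each comparison with spleen, where 6.87% to 25.7% of all genes were called, and the list's median log2 fold change lay between -0.14 and -0.03. Slc3a2, the heavy chain of large amino acid transporters, was higher in liver in all 4. Its level was 232 ± 30.5 CPM (SD, n = 6) in spleen CD-HFD, 422 ± 85.9 (n = 6) in CXCR6neg CD-HFD and 810.1 ± 91 (n = 5) in CXCR6pos CD-HFD. Cdkn1a, a cell cycle inhibitor, was also higher in all 4, from 8.16 ± 5.71 CPM (n = 6) in spleen CD-HFD to 70.5 ± 35.7 (n = 5) in CXCR6pos CD-HFD (3.43 ± 0.4, adjusted p = 2.68577e-10). Ddit4, an mTORC1 inhibitor induced by ATF4, was lower in liver in 3 of the 4, at 50.9 ± 9.58 CPM (n = 6) in spleen CD-HFD and 17.3 ± 8.78 (n = 6) in CXCR6neg CD-HFD (-1.59 ± 0.32, adjusted p = 8.62137e-05). For CXCR6neg against spleen under ND it was at -0.63 ± 0.29 (adjusted p = 0.201604). Asns, Atf3, Trib3 and Sesn2, picked after their values were seen as well-known targets of ATF4, had group means of at most 12.8 CPM.

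**Figure D5:**
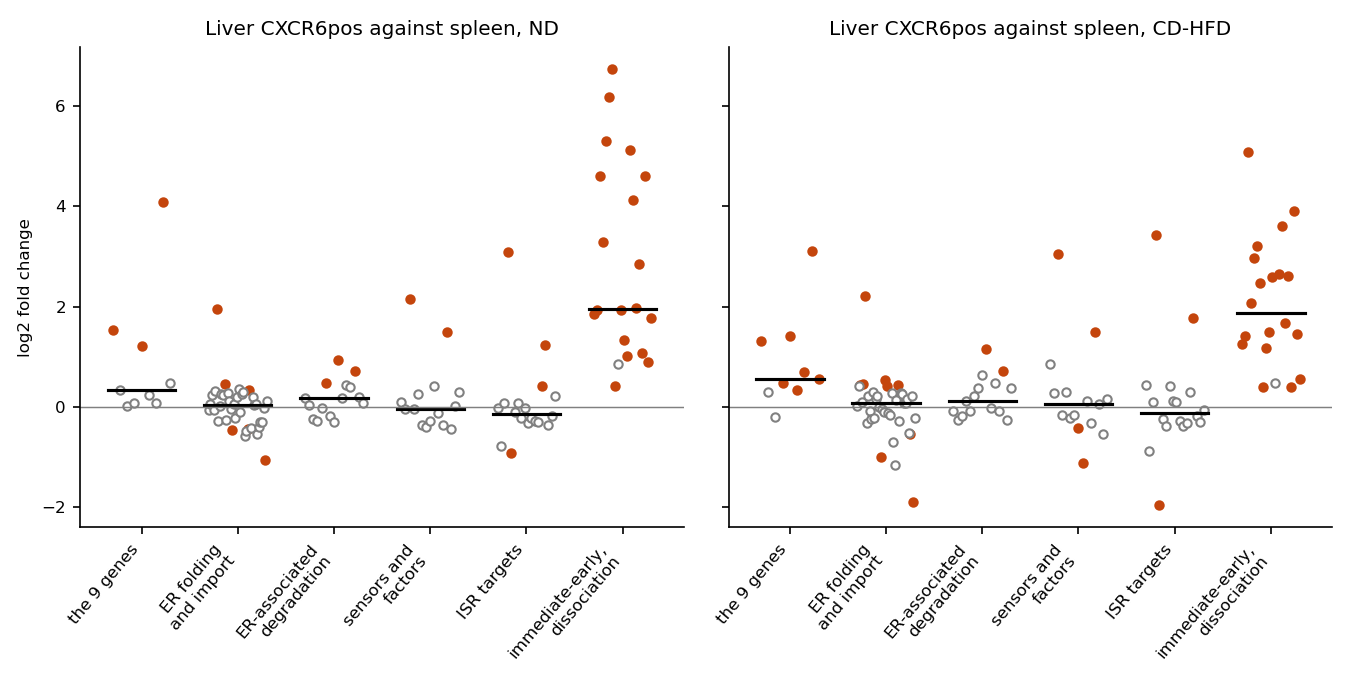
Log2 fold change of liver CXCR6pos against spleen (y axis) for the 9 genes, the 4 pathway lists and the immediate-early and dissociation-linked list, under ND on the left and CD-HFD on the right. Each point is a gene, filled where it passed the adjusted threshold of 0.05, and bars are medians. The pathway lists are centred near 0 with single genes above and below. Of 20 immediate-early and dissociation-linked genes, 19 are filled and above 0.

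Between CXCR6pos and CXCR6neg cells under CD-HFD, 4 of the 86 genes were called (4.65%, beside 11.1% of all genes). Slc3a2 was higher (log2 fold change 0.89 ± 0.12 SE, adjusted p = 7.82414e-09), as were the signal peptidase subunits Sec11c (0.55 ± 0.14) and Spcs2 (0.47 ± 0.12). Txndc5 was lower (-1.2 ± 0.26, adjusted p = 0.00036276). With diet in CXCR6pos cells, 6 of 86 were called (6.98%, beside 11.3%). Slc3a2 and Sec11c were higher under CD-HFD, and Txndc5, Ddit4, Fkbp2 and Rpn1 were lower. Slc3a2 was at 496 ± 98.4 CPM (n = 6) in CXCR6pos ND, a log2 difference of 0.66 ± 0.12 to CD-HFD (adjusted p = 1.09692e-05). Ddit4 was at 29.1 ± 18.1 CPM (n = 6) under ND and 10.7 ± 7.81 (n = 5) under CD-HFD.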

How the data were processed

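The deposited table held counts per gene for each library, and the authors' table was used as deposited. Per the labels' protocols, polyadenylated RNA was reverse transcribed with barcoded primers carrying unique molecular identifiers, and 3' fragments were sequenced. Genome build GRCm38.p6 and DESeq2 1.14.1 are named, per the submitters' processing notes. Aligner, counter, annotation, strand use and identifier collapsing were not given in the sources used here. Of the columns, 34 were matched to samples by name, 1 column matched no sample and was not used, and 1 labelled sample was not analysed here. CPM were counts divided by the column total. Because reads come from the 3' end, levels were not compared between genes, except for 1 ratio. Genes were kept by filterByExpr, scaled by TMM (factors 0.944 to 1.371) and tested in edgeR 4.0.16 (R 4.3.3, glmQLFit robust, glmQLFTest, 1 coefficient per group) with Benjamini-Hochberg adjustment over 6174 genes. The SE is the log2 fold change divided by the square root of F. DESeq2 1.42.0 was an alternative. The procedure was tested on simulated data. Samples were not paired by replicate number, since the labels do not say what a number marks. Gene spans are from GENCODE M21. The genes and lists were chosen with earlier results of these data known. Genes of the pathway lists were named where past the threshold, at most 6 per comparison by smallest p, with at least 20 CPM in the higher group. A gene so named in 1 comparison was also given in others. Ddit4, named for diet in CXCR6pos cells, was given against spleen outside that rule. Promoters are RefSeq's, 250 bases before to 50 after the start.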

Additional observations from a re-analysis of the deposited data

Results flagged for a closer look

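In 54 gene and group combinations of 4 to 10 libraries, 5 values lay apart from their group by Dixon's test at the 95% level. Chance alone gives about 1 such value in 20 combinations. Ppp1r15a in liver CXCR6neg ND replicate 2 was 1031 CPM from 171 counts, with the next library at 714. Ppp1r15a in liver CXCR6pos CD-HFD replicate 5 was 262 CPM from 15 counts, with the next at 487. Atf4 in liver CXCR6pos ND replicate 1 was 512 CPM from 8 counts and Pdia6 in the same library was 192 CPM from 3 counts. These CPM were not scaled by TMM, whose factor for that library was 1.371, the highest of all. Pdia3 in spleen ND replicate 5 was 414 CPM from 70 counts, with the next at 325. The diet effect on Ppp1r15a differed between CXCR6pos cells and spleen in the direct test of that difference, at -0.98 on the log2 scale.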

How the results depend on the processing

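Each of 8 alternatives and the omission of each of 32 libraries in turn left the calls of Ppp1r15a, Atf4 and Hspa5 against spleen past the threshold and higher in liver. With no filter on low counts, the genes called among the 9 fell to 1 for CXCR6pos against CXCR6neg under CD-HFD, 1 for diet in CXCR6pos and 4 for any difference. Diet in CXCR6pos also gave 1 under DESeq2, without the 2 ND libraries against their label, and with the identical library kept in liver. That library held 34.1 CPM of Ppp1r15a, within the range of spleen ND. Kept in liver, it left Ppp1r15a without a call for diet in CXCR6pos (adjusted p = 0.4929) and between the fractions under CD-HFD (0.5978). The Ppp1r15a call for diet against spleen was lost too (0.5922, leaving 0 genes). Kept in spleen, that library left 2 genes for diet against spleen. With 1 library left out, genes called were 2 to 3 between fractions under CD-HFD, 1 to 2 for diet in CXCR6pos, 0 to 1 for diet against spleen, 5 to 8 and 3 to 4 for CXCR6pos against spleen under CD-HFD and ND, and 6 to 8 for any difference. Deviations of same-numbered libraries were weakly correlated (73 pairs, -0.0621 to 0.084, median 0.0133). Those of other pairs ran from -0.1252 to 0.1045 (352 pairs, median -4e-04). Of 32 libraries, 11 correlated best with their own number. Such weak correlations cannot tell whether same-numbered libraries came from the same animal. The replicate block gave 1 gene for diet in CXCR6pos, where Pdia6 was at adjusted p = 0.05187, and changed no other count of the 9. Counts over all genes ranged widely where they were small: from 0 to 90 around 2 between fractions under ND, from 8 to 53 around 29 for diet in CXCR6neg, from 0 to 8 around 2 for diet in spleen, and from 53 to 109 around 89 for the fraction and diet interaction. CXCR6neg against spleen under ND gave 245 genes with the identical library kept in liver, beside 424. Of 2232 fold changes of the 9 genes compared with the main fit, called and uncalled together, 57 changed sign. Depth limits the 2 shallowest libraries, where a gene rests on 2 to 47 counts. The 3' counts hold no splice form of Xbp1.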
